A study of Mus musculus with 6 samples.

Results

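RNA of cells labelled as pachytene was compared between mice that lack MAPS (MAPS KO, here KO) and wild-type mice (WT). The aim was to describe which stages, organelles, pathways and cell sources gained or lost transcripts. Every gene with a mean of at least 1 FPKM (fragments scaled by gene length and by library size) over the 4 libraries was taken, 15999 of the 54532 genes in the files. The mean over all 6 libraries of the series reached 1 FPKM for 15907 genes. Cells came from testis at about 80 days after birth and were purified by STA-PUT, a separation of cells by sedimentation speed. Each group was made from 3 mice of the same genotype and has n = 2 libraries from 2 independent experiments, built with a SMARTer mRNA kit from 1.3 µg of RNA. The third group, EE_KO, is labelled as overexpression of MAPS in the KO background; it entered the fit and is given beside some results. The sources used here do not state what the letters EE stand for, which part of the gene is deleted, or whether a library pools mice. The p-values therefore measure only the spread between these libraries.

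Pachytene is the long stage of male meiosis in which paired chromosomes are joined along their length by the synaptonemal complex and crossovers are completed. The X and Y chromosomes are then silenced and set apart in the sex body, and autosomal genes for meiotic division, sperm tail and acrosome are switched on ahead of use. In many families a gene on the X chromosome or in common use is replaced in spermatocytes by a germ cell form, often an intronless copy. Nursing Sertoli cells, hormone-making Leydig cells and the cells of the tubule wall are the somatic neighbours of these germ cells in the testis.

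The labels give no gene identifier for MAPS. It was taken from general knowledge to be encoded by 1700102P08Rik, and the check of the knockout rests on that. The gene 1700102P08Rik (ENSMUSG00000032611, GRCm38 chromosome 9, 108392805 to 108410934, plus strand) was measured at 157 and 150.2 FPKM in WT, at 7.97 and 10.1 in KO and at 109 and 82.2 in EE_KO. The fall in KO was 3.95 on the log2(FPKM + 1) scale (SE 0.16, limma adjusted p = 1.6e-06), and both KO libraries lay below both WT libraries. Reads recovered from the deposited values numbered 14171505 to 16558889 on genes per library. Genes at 1 FPKM or more numbered 14802 and 15007 in WT and 14049 and 14222 in KO.

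The label "pachytene cell" was checked against markers of that and of other cells. Piwil1, the PIWI protein of pachytene piRNAs, stood at 301 and 301 FPKM in WT but at 6.55 and 9.18 in KO. Sycp1, a protein of the synaptonemal complex, stood at 43.2 and 47.9 in WT and 38 and 41.9 in KO, a difference that was not called (log2 -0.19, SE 0.13, adjusted p = 0.22). With quantile normalization Sycp1 was called as a rise (log2 0.44). Of 30 mid to late pachytene genes 30 fell in KO (median -4.61). WT and KO thus share the label but differ in most markers of the later part of this stage. The libraries also held RNA of genes used as markers of other cells. The 33 genes of the Sertoli cell list made up 0.223 and 0.228% of the summed FPKM in WT and 3.95 and 4.04% in KO. Which cells held this RNA was not tested. The WT libraries in turn held protamine transcripts of spermatids, at 273 and 669.9 FPKM for Prm1. In RNA of bulk fractions, fewer cells of a type and less RNA per cell cannot be told apart, and this holds for every result below.

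Of the 15999 genes, 6396 rose (40.0%) and 7189 fell (44.9%) at a limma adjusted p under 0.05, together 84.9% called. With a change of at least 4-fold as well, 2177 rose (13.6%) and 3276 fell (20.5%). WT and KO libraries did not overlap for 92.7% of genes, so a lack of overlap in a single gene sets it apart from few others. The median change of all genes was -0.13 on the log2(FPKM + 1) scale. It was 0.27 with values rescaled to TPM (each library scaled to the same total), 0.13 with quantile normalization and 0.23 with limma's voom on recovered reads, so small changes depend on the scale. The WT libraries summed to 335071 and 321463 FPKM and the KO libraries to 251584 and 232716. With 2 libraries against 2, the smallest p of an exact permutation test is 0.333, and the calls rest on limma's spread pooled over genes.

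Promoters of 5 genes are shown, chosen after their values were seen, 4 of which fell and 1 of which rose, as examples of the motifs counted over all tested protein-coding genes with a promoter. They run from 250 bases before to 50 bases after the start site in RefSeq (GRCm38.p6), each 5′ to 3′ on the gene's own strand. Capitals mark matches on either strand to CNGTTA or CNGTTG, the core recognised by MYB proteins, and to GTTGCCA, part of the site of RFX proteins. MYBL1 is the MYB protein of pachytene cells and RFX2 is a regulator of cilium and sperm tail genes. In Tekt1 both motifs overlap.

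1700102P08Rik (chr9:108392584-108392883, plus strand): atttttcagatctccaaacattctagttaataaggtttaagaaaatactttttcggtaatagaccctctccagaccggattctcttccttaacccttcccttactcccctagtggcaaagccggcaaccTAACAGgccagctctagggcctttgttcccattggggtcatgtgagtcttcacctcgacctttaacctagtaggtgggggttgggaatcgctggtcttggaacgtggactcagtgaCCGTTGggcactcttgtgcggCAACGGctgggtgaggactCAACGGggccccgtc

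Ldhc, lactate dehydrogenase of germ cells (chr7:46861013-46861312, plus strand): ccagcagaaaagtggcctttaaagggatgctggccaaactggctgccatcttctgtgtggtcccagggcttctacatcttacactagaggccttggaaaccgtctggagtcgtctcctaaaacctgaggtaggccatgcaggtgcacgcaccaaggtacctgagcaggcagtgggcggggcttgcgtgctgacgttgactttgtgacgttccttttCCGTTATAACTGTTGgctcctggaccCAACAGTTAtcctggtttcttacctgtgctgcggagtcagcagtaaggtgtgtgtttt

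Piwil1 (chr5:128735996-128736295, plus strand): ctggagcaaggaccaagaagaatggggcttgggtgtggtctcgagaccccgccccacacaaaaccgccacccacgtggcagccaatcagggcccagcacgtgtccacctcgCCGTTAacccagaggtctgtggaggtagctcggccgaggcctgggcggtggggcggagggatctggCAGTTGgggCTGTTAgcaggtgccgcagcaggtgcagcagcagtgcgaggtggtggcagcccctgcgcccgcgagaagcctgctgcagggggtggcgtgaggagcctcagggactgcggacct

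Tekt1, a tektin of the sperm tail axoneme (chr11:72361833-72362132, minus strand): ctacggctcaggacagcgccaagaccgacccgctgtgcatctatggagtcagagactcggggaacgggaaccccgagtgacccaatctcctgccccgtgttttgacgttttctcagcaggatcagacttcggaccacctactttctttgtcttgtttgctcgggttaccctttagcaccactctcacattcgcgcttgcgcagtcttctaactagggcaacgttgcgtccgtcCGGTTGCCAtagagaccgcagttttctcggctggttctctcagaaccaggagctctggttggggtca

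Fos, a subunit of the AP-1 factor, which rose (chr12:85473640-85473939, plus strand): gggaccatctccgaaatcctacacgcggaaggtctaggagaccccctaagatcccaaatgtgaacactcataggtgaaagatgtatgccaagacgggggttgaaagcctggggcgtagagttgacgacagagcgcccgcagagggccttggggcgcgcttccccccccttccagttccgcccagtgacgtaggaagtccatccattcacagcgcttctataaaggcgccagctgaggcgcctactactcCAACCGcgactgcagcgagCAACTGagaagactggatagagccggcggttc

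The shares of promoters with a motif are descriptions, and their differences were not tested. A promoter was found for 9928 of 12331 tested protein-coding genes (80.5%). The MYB motif was present in 1048 of 1731 promoters of genes that fell at least 4-fold (60.5%) and in 653 of 1602 of those that rose at least 4-fold (40.8%). It was present in 46.9% of all tested protein-coding genes with a promoter and in 49.6% of all 27025 promoters of the table. Base composition differed as well, with a median GC content of 56.3% for the 4-fold falls and 61.7% for the 4-fold rises. Among promoters of 55 to 65% GC, the shares with a MYB motif were 60.5% and 44.5%, against 49.4% of all tested protein-coding genes in that band. The RFX motif was present in 9.24% of the 4-fold falls, 3.25% of the 4-fold rises and 4.47% of all promoters of the table. Within the GC band it was present in 9.6% of falls, 4.48% of rises and 4.9% of all tested protein-coding genes. The cAMP response element TGACGTCA stood in 2.72% of the 4-fold falls, 2.62% of the 4-fold rises and 3.3% of all tested protein-coding genes with a promoter. In the same order, the AP-1 site TGANTCA stood in 6.07%, 5.06% and 4.78%, and the NR5A site CAAGGTCA in 1.27%, 1.56% and 1.02%. Fos, which rose, also carries the MYB motif, and a match describes letters in a window only. The transcript of Mybl1 stood at 30.1 and 22.6 FPKM in WT and 10.3 and 8.94 in KO (log2 -1.35, SE 0.16). That of Rfx2 stood at 96.2 and 88.9 and 3.66 and 4.42 (log2 -4.22, SE 0.11).

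Genes were then read in 55 lists of stages, organelles, pathways and cell sources, which name 1944 distinct genes in the files, 1720 of them tested. Some lists share genes. Counts within a list are read against the 40.0% that rose and the 44.9% that fell of all 15999 genes. A list near these shares does not stand apart from all genes. A list member that is near 0 in 1 group passes the filter only through the other, where it is high, so counts of members are descriptions of the members that passed. The plot of every tested member by list shows the range from the germ cell stages to the somatic cells.

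**Figure D1:**
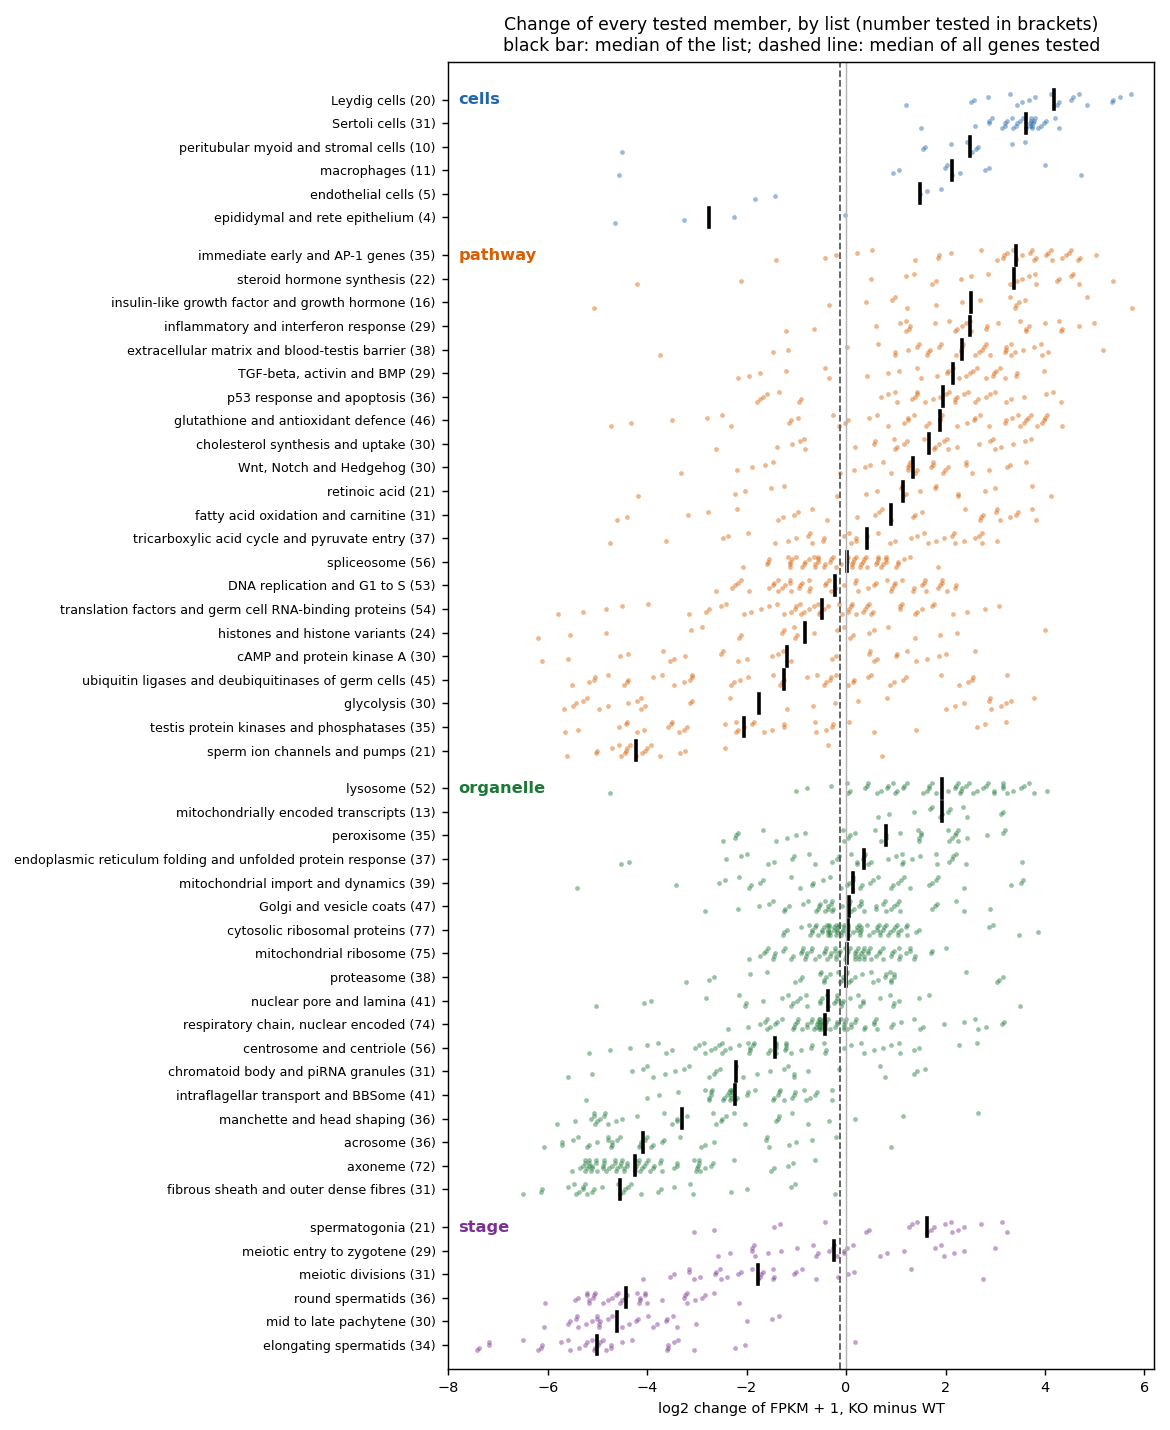
Log2 change of FPKM + 1, KO minus WT (x axis), of every tested member of each list with 3 or more tested members (y axis, number tested in brackets), grouped by kind of list. Black bars are list medians and the dashed line is the median of all genes tested (-0.13). Stage lists from pachytene on and sperm structures lie to the left. Response genes and cell sources lie to the right, except the epididymal and rete epithelium list (4 tested, median -2.76), which lies to the left.

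By stage, transcripts of early germ cells and of meiotic entry moved in both directions, and nearly all of those from mid pachytene to spermatids fell. Of 30 mid to late pachytene genes, all tested, 30 fell and the median change was -4.61, against -0.13 for all genes. Tdrd6, a tudor protein of germ granules, stood at 315 and 273 FPKM in WT and 5.0 and 5.25 in KO (log2 -5.59, SE 0.11, adjusted p = 3.8e-07). Adam3, a membrane protein that sperm need to enter the oviduct, stood at 478 and 397 and 5.35 and 5.56 (log2 -6.08). Hspa2, a chaperone of synaptonemal complex disassembly and meiotic exit, stood at 878 and 817 and 63.1 and 74.3 (log2 -3.61). For each of these genes both KO libraries were far below both WT libraries.

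Of 29 tested genes of meiotic entry to zygotene (30 in the files), 9 rose, 11 fell and 9 were not called. Their median of -0.25 turned to 0.17 with TPM, and the counts to 11 that rose and 9 that fell. Stra8, which retinoic acid induces at meiotic entry, stood at 1.55 and 1.69 FPKM in WT and 17.6 and 22.3 in KO (log2 3.0, SE 0.15, adjusted p = 3.7e-06). Tex11, an X-linked gene of crossover formation, stood at 1.06 and 1.35 and 9.68 and 11 (log2 2.36). Both were higher in each KO library. Spo11, whose enzyme makes the meiotic DNA breaks, went the other way, from 34.6 and 28.8 to 4.13 and 4.79 (log2 -2.58). The telomere attachment genes Terb1 (log2 -2.34) and Majin (log2 -1.89) fell with it. Sycp3, of the lateral elements of the synaptonemal complex, stood at 74 and 72.8 and 42.4 and 54.9 (log2 -0.60, adjusted p = 0.0047), but was not called with TPM (-0.17), voom (-0.23) or quantile normalization (0.0732).

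Of 21 tested spermatogonial genes (30 in the files), 14 rose and 5 fell. Dmrt1, a transcription factor that holds spermatogonia out of meiosis, stood at 3.47 and 4.08 FPKM in WT and 42 and 40.2 in KO (log2 3.14, SE 0.28). Dmrt1 is also a member of the Sertoli cell list. Kit, the receptor of differentiating spermatogonia that Leydig cells also express, stood at 0.818 and 1.26 and 12.8 and 11.8 (log2 2.71). Uchl1, a ubiquitin hydrolase, stood at 11.6 and 11.9 and 103 and 139 (log2 3.24). All 3 were higher in both KO libraries. Ddx4, an RNA helicase of all germ cells, stood at 256 and 243 and 34.6 and 42.8 (log2 -2.67), and Tex13a, which is X-linked, at 5.8 and 9.28 FPKM in WT with no reads in KO. The Sertoli and Leydig lists rose in the same libraries, and their part in the spermatogonial result was not tested.

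For the meiotic divisions, 31 of 32 genes were tested, of which 26 fell, 2 rose and 3 were not called (median -1.77). Aurka, a kinase of spindle poles, stood at 123 and 97.6 FPKM in WT and 7.74 and 9.21 in KO (log2 -3.55, SE 0.14). Its germ cell relative Aurkc stood at 29 and 23.1 and 0.585 and 0.567 (log2 -4.09), and Fbxo43, an inhibitor of the anaphase-promoting complex, at 19.9 and 14.7 and 0.607 and 0.685 (log2 -3.46). The mitotic genes Cdk1 (15.1 and 12.1 against 11.9 and 12 FPKM, adjusted p = 0.26) and Tpx2 (23.7 and 18.6 against 23.4 and 23.6, adjusted p = 0.3) were not called, although Tpx2 was a called rise without WT_1 (log2 0.32) and with TPM (0.60). Ccnb3, an X-linked cyclin, stood at 0.188 and 0.13 in WT and 7.14 and 6.59 in KO (log2 2.76).

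Transcripts of spermatids were near 0 in KO. All 36 tested round spermatid genes (of 37) fell, with a median of -4.43, and 28 of them were under 1 FPKM in KO. Of 34 elongating spermatid genes 33 fell, with a median of -5.01 and 20 under 1 FPKM in KO. Prm1, which packs DNA in the sperm head, stood at 273 and 669.9 FPKM in WT and 1.07 and 2.02 in KO, a log2 change of -7.42 (SE 0.44, adjusted p = 6.2e-06). Prm2 stood at 258 and 583 and 1.18 and 1.48, and the transition protein gene Tnp2 at 432 and 919 and 3.92 and 2.81. Gsg1, a round spermatid gene, stood at 122 and 206 and 1.68 and 1.16 (log2 -6.05). For these 4 genes WT_2 was higher than WT_1, and each KO library was below both. Fam71a was the elongating spermatid gene not called, at 6.91 and 12.5 FPKM in WT and 11.5 and 9.95 in KO; without WT_2 it was called as a rise (log2 0.56).

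**Figure D2:**
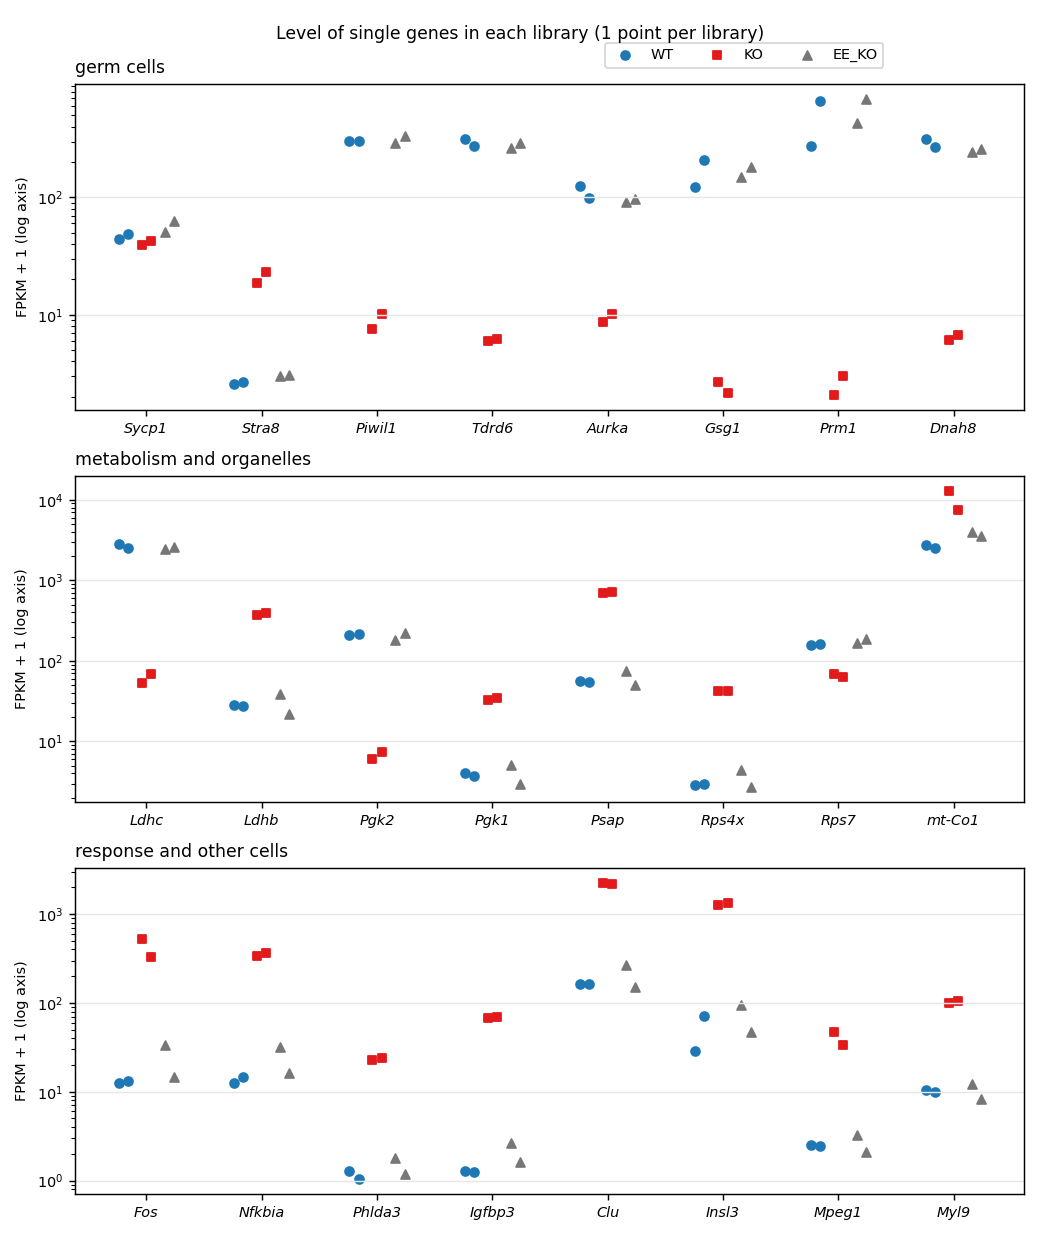
FPKM + 1 on a log axis (y axis) of 24 genes (x axis) in each of the 6 libraries, 1 point per library: WT circles, KO squares, EE_KO triangles. KO libraries lie below WT for pachytene, spermatid and germ cell enzyme genes, above WT for response and somatic genes, and beside WT for Sycp1.

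Of the axoneme genes, which build the microtubule core of the tail, 72 of 76 were tested and 72 fell, 67 of them at least 4-fold (median -4.25). Dnah8, a dynein heavy chain, stood at 315 and 271 FPKM in WT and 5.14 and 5.7 in KO (log2 -5.51, SE 0.11). Dnaaf1, which assembles dynein arms, stood at 524 and 465 and 10.8 and 12.6 (log2 -5.28), and Tekt1 at 232 and 215 and 4.8 and 5.78 (log2 -5.16). All of them were low in both KO libraries, and 18 of the 72 were under 1 FPKM there. With TPM 71 of the 72 fell.

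Of the fibrous sheath and outer dense fibre genes, 31 were tested and 30 fell (median -4.55). Smcp, of the mitochondrial capsule of sperm, stood at 244 and 412 FPKM in WT and 2.93 and 2.14 in KO (log2 -6.50). Odf1 stood at 164 and 278 and 1.71 and 2.45 (log2 -6.13), and Akap4, an X-linked anchor of protein kinase A in the tail, at 79.3 and 140.2 and 0.68 and 0.399 (log2 -6.12). Tpgs1, of a tubulin-modifying complex with use outside the testis, was the member not called (15.5 and 16.5 against 13.4 and 13.7 FPKM).

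Intraflagellar transport and BBSome genes carry cargo along cilia, and their median fall was smaller than that of the axoneme. Of 43, 41 were tested and 39 fell, with a median of -2.23 and none under 1 FPKM in KO. Ift172 stood at 136 and 118 FPKM in WT and 7.63 and 9.22 in KO (log2 -3.77), and Ttc30a2 at 120.2 and 91.6 and 1.4 and 2.34 (log2 -5.23). Ift20, which also serves at the Golgi, was not called at 39.2 and 35.8 and 29.6 and 31.8, nor was Ttc30b at 3.47 and 4.08 and 3.6 and 2.36. The difference between the medians of the 2 lists is a description and was not tested.

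Of 36 acrosome genes 34 fell, 1 rose and 1 was not called (median -4.08). Acr, the protease acrosin, stood at 156 and 137 FPKM in WT and 2.95 and 2.98 in KO (log2 -5.22), and Zpbp2, which binds the egg coat, at 264 and 218 and 3.44 and 3.8 (log2 -5.71). Vps54, a Golgi tethering gene of general use, was the member that rose, from 2.93 and 3.33 to 6.71 and 6.64 (log2 0.90). Of 36 genes of the manchette and head shaping, 32 fell and 2 rose (median -3.29). Rimbp3, a manchette protein, stood at 202 and 181 and 2.47 and 2.4 (log2 -5.80). Cdk16, an X-linked kinase, rose from 7.82 and 9.33 to 60.2 and 57.9 (log2 2.65), and the nuclear envelope gene Syne1 from 0.533 and 0.62 to 2.5 and 2.42 (log2 1.14).

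The chromatoid body and piRNA granule list split by member. Of 31 tested genes (of 32), 25 fell, 5 rose and Mov10l1, the helicase that feeds piRNA production, was not called (36.5 and 36.5 against 30.3 and 36.1 FPKM). Piwil1 fell from the values above by 5.10 on the log2 scale (SE 0.16, adjusted p = 5.7e-07), and Ddx25, a helicase of spermatid mRNA storage, from 111 and 95.1 to 3.51 and 5.2 (log2 -4.30). Fkbp6, a co-chaperone of PIWI loading, rose from 17.6 and 19.9 to 56.9 and 59 (log2 1.58, SE 0.11), and Dazl, an RNA-binding protein of early germ cells, from 24.8 and 27 to 73.1 and 70.3 (log2 1.44). The KO libraries were thus low for Piwil1 and high for Fkbp6 with no overlap in either gene.

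Of the centrosome and centriole genes, 56 of 59 were tested, 43 fell and 10 rose (median -1.42). Deup1, which makes centrioles in bulk in ciliated cells, stood at 35.2 and 44.9 FPKM in WT and 0.538 and 0.504 in KO (log2 -4.74), and Cetn4 at 72.4 and 62.5 and 2.19 and 2.53 (log2 -4.35). The X-linked Ofd1, of the distal centriole, rose from 0.69 and 0.682 to 7.14 and 7.2 (log2 2.28). Pcnt, a scaffold of the pericentriolar material, was not called (11.1 and 12.5 against 12.4 and 13.1). It was a called rise with TPM (log2 0.54), voom (0.50) and quantile normalization (0.41).

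In machinery that every cell uses, list medians lay nearer to 0 and depended on the scale. Cytosolic ribosomal proteins had 77 tested, of which 30 rose, 20 fell and 27 were not called (median 0.03). With TPM 48 rose and 4 fell (median 0.47). For the nuclear-encoded respiratory chain the counts were 18 and 41 of 74 tested, with a median of -0.42, and with TPM 29 and 16, with a median of 0.01. The spliceosome had 20 rises and 24 falls of 56, the mitochondrial ribosome 27 and 26 of 75, the proteasome 14 and 14 of 38 and the Golgi and vesicle coats 19 and 20 of 47. With TPM these became 30 and 14, 39 and 18, 23 and 8, and 25 and 10. For nuclear pore and lamina 10 rose and 20 fell of 41, and for DNA replication 22 and 24 of 53. Both medians (-0.36 and -0.23) were above 0 with TPM.

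Within these lists the X-linked members stood apart. In 10 lists of such machinery, put together after values were seen, 15 X-linked genes were tested and 15 rose, with a median of 2.96. Of the 517 autosomal members 180 rose and 214 fell, with a median of -0.07. Among all tested genes, 441 of 570 X-linked genes rose, so the share among these 15 is read against a high background. Rps4x of the small ribosomal subunit stood at 1.84 and 1.94 FPKM in WT and 41.4 and 41.1 in KO (log2 3.87, SE 0.23, adjusted p = 6.3e-06). Rpl10 of the large subunit stood at 3.76 and 3.96 and 52.9 and 53.2 (log2 3.48), and Rpl36a at 0.345 and 0.719 and 11 and 10.7 (log2 2.96). The 4 X-linked ribosomal protein genes were the only ones of the 77 to rise at least 4-fold. The autosomal member Rps7 went from 155 and 159 to 68.5 and 62.6 (log2 -1.25). The X-linked respiratory chain genes Cox7b (0.471 and 0.816 against 14.4 and 13.2) and Ndufb11 (3.07 and 3.71 against 35.4 and 39.4) and the nucleoporin gene Nup62cl (3.42 and 2.81 against 47.8 and 43.2) were likewise low in both WT libraries and high in both KO libraries. Genes of ribosomal proteins have many near-identical processed copies, which makes their levels uncertain.

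**Figure D3:**
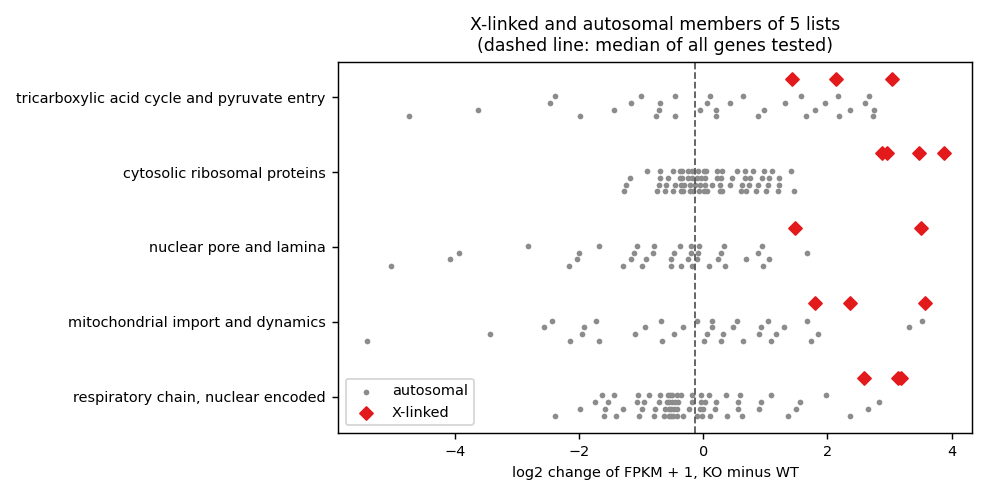
Log2 change of FPKM + 1, KO minus WT (x axis), of the tested members of 5 lists of cell machinery (y axis): X-linked genes as diamonds, autosomal genes as small points. The X-linked members of each list lie to the right of the dashed median of all genes (-0.13), while autosomal members spread around it.

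Transcripts of the mitochondrial genome took a larger share of RNA in KO. They held 1.8 and 1.83% of the summed FPKM in WT and 11.9 and 7.25% in KO, with 2.67 and 2.46% in EE_KO. Of the 13 protein genes 11 rose and 2 were not called (median 1.92). mt-Co1, a core subunit of cytochrome oxidase, stood at 2778 and 2520.3 FPKM in WT and 12867 and 7428 in KO (log2 1.89, SE 0.27, adjusted p = 0.00043), and was not called with quantile normalization (0.230). mt-Nd4l and mt-Atp8 were not called, with 32.6 and 6.78 and 4.37 and 0.846 FPKM in the KO libraries, and were called rises without KO_2 (log2 1.91 and 1.42). KO_1 exceeded KO_2 in 12 of the 13 genes, in mt-Atp6 by little (113 and 113), and was lower in mt-Co3 (97.4 against 318), so the size of the rise differed between the KO libraries.

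Of nuclear genes for mitochondrial import, carriers and dynamics, 39 of 41 were tested, 17 rose and 14 fell. Vdac1, the main pore of the outer membrane, stood at 5.04 and 5.04 FPKM in WT and 74.4 and 62.3 in KO (log2 3.51), and the X-linked nucleotide carrier Slc25a5 at 9.81 and 10.8 and 149.5 and 117 (log2 3.56). Tomm20l, the germ cell form of an import receptor, fell from 60.8 and 55.6 to 0.464 and 0.32 (log2 -5.41). In the proteasome, Psma8, the subunit of the testis proteasome, fell from 124 and 117 to 10.5 and 13.8 (log2 -3.22). Psme1 and Psme2, the activator subunits that interferon induces, rose from 1.07 and 1.79 to 20.8 and 20.0 and from 1.13 and 1.12 to 13.2 and 20.3 FPKM.

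Lysosome genes rose as a list: of 53, 52 were tested, 45 rose, 3 fell and 4 were not called (median 1.93). Psap, the precursor of the saposins, stood at 55.7 and 53.2 FPKM in WT and 701 and 710.1 in KO (log2 3.67, SE 0.19, adjusted p = 3.4e-06). The cathepsin genes Ctsb (2.9 and 3.19 against 70.1 and 60.5) and Ctsd (4.71 and 6.04 against 86.4 and 86.8) were also higher in both KO libraries. Arsa, arylsulfatase A, fell from 148 and 127 to 3.68 and 4.65 (log2 -4.75). Atp6v1a of the proton pump (log2 -1.0) and Lamp1 of the lysosomal membrane fell too. Lamp1 went from 266 and 235 to 158 and 131, but was at 0.0300 and not called with quantile normalization. The Sertoli and Leydig lists rose in the same libraries; their part in the lysosomal result was not tested.

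Peroxisome genes rose in 21 and fell in 9 of 35 tested (of 39). Abcd3, a fatty acid transporter of the peroxisome, stood at 2.04 and 2.52 FPKM in WT and 29.1 and 26.9 in KO (log2 3.15), and Phyh, of branched fatty acid breakdown, at 1.55 and 1.95 and 25.5 and 22.8 (log2 3.20). Pex11g, of peroxisome division, fell from 16.3 and 13.2 to 1.62 and 2.05 (log2 -2.47).

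In the endoplasmic reticulum list, 20 rose and 12 fell of 37 tested (of 40). The testis chaperones Clgn (344 and 308 against 12 and 18.3 FPKM, log2 -4.36) and Pdilt (20.0 and 29.2 against 0.0 and 0.202) fell. Hspa5, the general chaperone of this organelle, rose from 170.4 and 141 to 303 and 317 (log2 1.0), and Ppp1r15a, which ends the translation arrest of stressed cells, from 4.72 and 5.2 to 62.4 and 73.8 (log2 3.53). Ddit3, a factor of prolonged stress in this organelle, went down from 41.8 and 41.6 to 12 and 15 (log2 -1.57), so the stress genes of the list moved in both directions.

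Glycolysis, a main energy source of the sperm tail, had 30 of 33 genes tested, of which 18 fell and 11 rose (median -1.76). Ldhc stood at 2816 and 2499.7 FPKM in WT and 52.9 and 68.5 in KO (log2 -5.44, SE 0.16, adjusted p = 4.9e-07), and Pgam2, a phosphoglycerate mutase, at 824 and 785 and 11.7 and 18.4 (log2 -5.68). Ldhb, the heart form of lactate dehydrogenase and also a member of the Sertoli cell list, rose from 27.1 and 26.5 to 369 and 391 (log2 3.78). The liver phosphofructokinase Pfkl rose from 2.02 and 1.93 to 27.6 and 29.9 (log2 3.32). Gpi1 was the only tested glycolysis gene not called (12 and 17.4 against 16.7 and 18). It was a called rise with TPM (log2 0.69), voom (0.64) and quantile normalization (0.63).

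Of 37 tricarboxylic acid cycle genes 18 rose (48.6%) and 13 fell (35.1%), against 40.0% and 44.9% of all genes. The X-linked Idh3g stood at 1.75 and 1.83 FPKM in WT and 21.9 and 21.8 in KO (log2 3.04), and Mdh1b, a form of malate dehydrogenase, at 127 and 107 and 3.21 and 3.62 (log2 -4.74). Fatty acid oxidation had 19 rises and 11 falls of 31 tested. Acadl, the long-chain acyl dehydrogenase, stood at 3.17 and 3.36 and 49.1 and 42.5 (log2 3.45), while Crat, carnitine acetyltransferase, fell from 326 and 278 to 13.7 and 12.8 (log2 -4.41).

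Cholesterol synthesis and uptake had 23 rises and 6 falls of 30 tested (of 32). Its members moved in both directions along the pathway. Ebp, an X-linked sterol isomerase, stood at 2.63 and 2.15 FPKM in WT and 38.4 and 41 in KO (log2 3.59), and the efflux pump Abca1 at 0.979 and 2.05 and 40.0 and 24.4 (log2 3.71). Fdft1, squalene synthase, fell from 107 and 92.7 to 15 and 15.8 (log2 -2.62), and Sqle, squalene epoxidase, from 16.5 and 18.4 to 8.92 and 9.48 (log2 -0.86). Steroid hormone synthesis, most of whose genes Leydig cells express, had 19 rises and 2 falls of 22 tested. Cyp17a1, of androgen synthesis, stood at 13.6 and 15.8 and 416 and 386 (log2 4.68, SE 0.41), whereas Cyp19a1, aromatase, fell from 3.78 and 3.96 to 0.0862 and 0.165 (log2 -2.11).

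The glutathione and antioxidant list split in the same manner, with 33 rises and 10 falls of 46 tested (of 50). Gstm1, a glutathione transferase, stood at 36.3 and 53.7 FPKM in WT and 1049 and 797 in KO (log2 4.34). Gstm5, of the same gene cluster, stood at 880.3 and 833 and 37.1 and 47.7 (log2 -4.32). Txn1, the general thioredoxin, rose from 2.58 and 4.21 to 66.9 and 69.6 (log2 4.0), and Txndc8, a thioredoxin of spermatids, fell from 29.7 and 31.6 to 0.407 and 0.0. Copies in the Gstm cluster resemble each other, and reads may have been split between them.

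The exchange of forms was followed in 47 pairs of a broadly expressed gene and its germ cell form, of which 43 had both forms tested. In 32 pairs the germ cell form fell and the broad form rose. The germ cell form fell in 40 pairs, and its share of the FPKM of the pair was lower in both KO libraries than in both WT libraries in 41 of 43. It held more than 50% of the pair in 34 pairs in WT and in 8 in KO. In 10 pairs the broad form is X-linked, and it rose in 10. In the 33 pairs with an autosomal broad form it rose in 24. The background for a single gene is 40.0% rising and 44.9% falling. It differs by chromosome: 441 of 570 tested X-linked genes and 5921 of 15377 autosomal genes rose. The 10 X-linked broad forms are therefore read against a high background.

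Pgk1, the X-linked phosphoglycerate kinase, stood at 3.02 and 2.71 FPKM in WT and 31.8 and 33.3 in KO, and its autosomal copy Pgk2 at 208 and 213 and 5.13 and 6.48. Pgk2 held 98.7% of the pair in WT and 15.1% in KO. Among pairs with both forms on autosomes, Ppp3r2, a regulatory subunit of the phosphatase calcineurin, held 98.7% in WT and 10.1% in KO beside Ppp3r1. The cytochrome oxidase form Cox8c held 98.7% and 22.5% beside Cox8a. Slc2a3, a glucose transporter, still held 62.7% in KO beside Slc2a1, after 99.9% in WT. In each of these pairs the 2 KO libraries lay below the 2 WT libraries.

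Both forms fell in 7 pairs. Ldha, which lies next to Ldhc on chromosome 7, went from 489.9 and 432 to 24.8 and 29.4 FPKM (log2 -4.04), and the general RNA-binding genes Ybx1 (658 and 671 against 117 and 113) and Pabpc1 (669 and 638 against 85.4 and 98.1) fell beside Ybx2 and Pabpc2. The pairs of the cohesin kleisin Rad21 were exceptions. Rad21l, the kleisin of early meiotic prophase, rose (log2 1.91, SE 0.20) together with Rad21 (log2 2.06), and the meiotic kleisin Rec8 was not called (13.1 and 17.7 against 12.8 and 16.9). Gapdh stood at 0.639 and 0.591 in WT and 6.26 and 6.56 in KO beside Gapdhs at 112 and 189 and 3.32 and 2.65; Gapdh has many processed copies, and its level is uncertain.

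**Figure D4:**
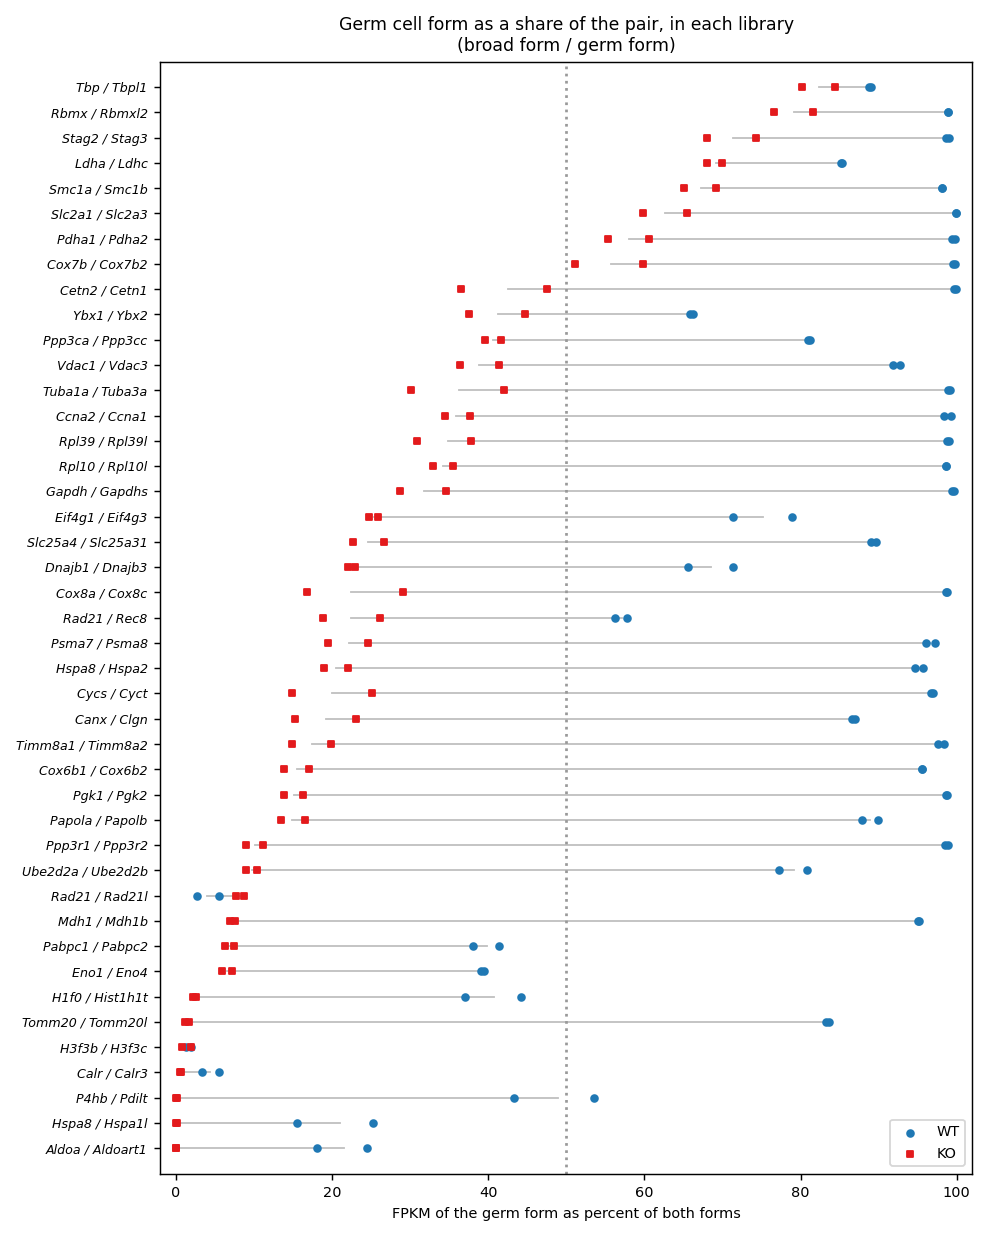
FPKM of the germ cell form as percent of both forms (x axis) in 43 pairs (y axis, broad form / germ form) in each WT library (circles) and KO library (squares), with a line between the group means. The share falls from right to left in 42 of 43 pairs; in Rad21 / Rad21l it is higher in KO (8.16% against 3.99%).

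Among germ cell regulators, 27 of 35 tested testis kinases and phosphatases fell and 5 rose. Tssk2, a spermatid kinase, stood at 53.8 and 85.5 FPKM in WT and 0.802 and 0.498 in KO (log2 -5.39), while Pim1, a kinase that cytokines induce, rose from 8.1 and 13.2 to 105 and 105 (log2 3.22). Of 21 tested sperm ion channels and pumps (of 26) 20 fell; Catsperz, of the sperm calcium channel, went from 482 and 435 to 7.41 and 9.36 (log2 -5.62). Of 45 ubiquitin ligases, conjugating enzymes and deubiquitinases of germ cells 26 fell and 12 rose, and the X-linked ligase Huwe1 was among the latter (3.02 and 3.43 against 25.4 and 22.2). Of 54 translation factors and germ cell RNA-binding proteins tested 29 fell and 17 rose, with TPM 23 and 25. Pabpc2, a poly(A)-binding protein of testis, fell from 472 and 392 to 6.89 and 6.57 (log2 -5.80).

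Of 24 tested histone genes (of 33) 13 fell (54.2%) and 7 rose (29.2%), against 44.9% and 40.0% of all genes. Hils1, a linker histone of spermatids, stood at 86.9 and 157 FPKM in WT and 0.837 and 0.4 in KO (log2 -6.20), and H1fnt, another testis linker histone, at 46 and 97.3 and 0.596 and 0.308 (log2 -5.56). Hist1h1c, a linker histone of somatic cells, rose from 2.24 and 2.63 to 63 and 46.2 (log2 4.0). The replacement histone gene H3f3b was not called (166 and 201 against 198 and 202). It was a called rise with TPM (log2 0.57), voom (0.52) and quantile normalization (0.89).

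Response genes were among the largest rises. Of 35 tested immediate early and AP-1 genes (of 37) 30 rose, 26 of them at least 4-fold, 2 fell and 3 were not called (median 3.42). Fos stood at 11.4 and 12.2 FPKM in WT and 526 and 328 in KO (log2 5.02, SE 0.39, adjusted p = 2e-05), and Jun, its partner in AP-1, at 19 and 25.8 and 293 and 247 (log2 3.55). Egr1, a zinc finger factor induced by growth signals, stood at 12.2 and 15.2 and 417 and 328 (log2 4.66). The KO libraries were far above WT in these genes, with KO_1 above KO_2. In EE_KO, Fos stood at 32.8 and 13.7. Of the 2 called falls of the list, Fosl1 was not called with TPM (log2 -0.19), voom (-0.27) or quantile normalization (-0.31). Nr4a1, an orphan receptor of the same class of early genes, was not called (4.05 and 6.36 against 6.44 and 5.82), but was a called rise without WT_2 (log2 0.50).

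In the inflammatory and interferon list, 17 of 46 genes did not pass the filter; of the 29 tested 27 rose and 2 fell. Of these 29, 11 were under 1 FPKM in WT. Nfkbia, the inhibitor that NF-kappaB induces, stood at 11.4 and 13.7 FPKM in WT and 333 and 362 in KO (log2 4.69), and Cxcl1, a chemokine that draws neutrophils, at 2.7 and 4.09 and 168 and 112 (log2 4.99). Outside the list, Lcn2, an iron-binding protein of the acute phase, stood at 8.22 and 15 and 373 and 262 (log2 4.69). Irf3 and Myd88, which relay innate signals, fell from 29.6 and 28.1 to 11.4 and 12.6 and from 14 and 15.4 to 9.31 and 8.8, but Myd88 was not called with TPM (log2 -0.25).

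Of 36 tested p53 response and apoptosis genes (of 41), 29 rose and 7 fell (median 1.95). Phlda3, a p53 target that restrains AKT, stood at 0.275 and 0.0424 FPKM in WT and 21.6 and 22.8 in KO (log2 4.33, SE 0.23). Cdkn1a, the p53 target that stops the cell cycle, stood at 1.73 and 1.77 and 22.8 and 26.6 (log2 3.22), and Bax, which permeates mitochondria in apoptosis, at 1.77 and 2.01 and 12.7 and 15.5 (log2 2.38). Mdm2, a p53 target that degrades p53, fell from 52.9 and 49.4 to 26.6 and 27.3 (log2 -0.90). So did Bcl2l1, which protects from apoptosis (46.9 and 40.6 against 11.2 and 12.6), and Bad, which promotes it (26.9 and 25.6 against 7.79 and 6.57).

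Of 16 tested insulin-like growth factor genes (of 21) 14 rose. Igfbp3, a binding protein of the growth factor and the largest rise of all named genes, stood at 0.274 and 0.253 FPKM in WT and 66.4 and 67.6 in KO (log2 5.75, SE 0.23, adjusted p = 1.4e-06). Insl3, the Leydig cell hormone of testis descent, stood at 27.9 and 69.9 and 1277 and 1321, and its germ cell relative Insl6 fell from 182 and 163 to 3.54 and 4.8 (log2 -5.08). Igf1r, the receptor, stood at 0.779 and 0.807 and 10.9 and 10.1 (log2 2.68).

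In the TGF-beta, activin and BMP list 23 rose and 5 fell of 29 tested (of 39). Inha, the alpha subunit of inhibin from Sertoli cells, stood at 36.2 and 31.8 FPKM in WT and 594 and 508 in KO (log2 3.98), and Amhr2, a receptor of Sertoli and Leydig cells, at 60.8 and 68 and 691 and 722 (log2 3.44). Smad6, an inhibitor of the pathway, fell from 2.85 and 4.39 to 0.0868 and 0.269. For Wnt, Notch and Hedgehog 22 rose and 5 fell of 30 tested (of 45): the Notch target Hes1 went from 2.28 and 2.08 to 35.9 and 39.8 and the Wnt effector Lef1 from 16.8 and 13.9 to 0.595 and 0.662. In the retinoic acid list 14 rose and 5 fell of 21 tested (of 25). Aldh1a1, which makes retinoic acid and is a member of the Leydig cell list, rose from 9.4 and 10.5 to 214 and 168 (log2 4.13). Rdh11, a retinal reductase, fell from 160.2 and 138 to 8.36 and 6.31 (log2 -4.18). In the cAMP and protein kinase A list 16 fell (53.3%) and 11 rose (36.7%) of 30 tested, against 44.9% and 40.0% of all genes. Creb3l4, a factor of round spermatids, fell (49.9 and 78.6 against 2.02 and 1.47). The catalytic subunit gene Prkaca was not called (80.6 and 66.7 against 63.6 and 57.1), but was a called fall without WT_2 (log2 -0.41).

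Most of the somatic cell markers that passed the filter rose, but some passed it only through KO. Under 1 FPKM in WT were 3 of 31 tested Sertoli, 4 of 20 Leydig, 6 of 10 peritubular and stromal and 5 of 11 macrophage genes. The counts below therefore describe the members that passed and are no test against the 40.0% of all genes that rose. Over all somatic and blood lists, 137 genes in the files and 81 tested, 76 rose, 4 fell and 1 was not called, and the 137 genes held 0.288 and 0.326% of the summed FPKM in WT and 5.48 and 5.56% in KO. In EE_KO they held 0.497 and 0.266%. These markers differed between the same libraries as the lists of organelles and pathways described above, and their part in those results was not tested.

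All 31 tested Sertoli cell genes (of 33) rose. Sox9, the factor of Sertoli cell identity, stood at 2.83 and 3.05 FPKM in WT and 52.1 and 42.5 in KO (log2 3.61, SE 0.25). Clu, clusterin, was among the most abundant transcripts of KO at 2240.4 and 2161, against 162 and 162 in WT (log2 3.75). Outside the list, Amh, the Sertoli cell hormone of fetal and prepubertal testis, stood at 1.5 and 2.45 and 25.5 and 26 (log2 3.19). All 20 tested Leydig cell genes (of 22) rose as well. Star, which moves cholesterol into mitochondria, stood at 5.21 and 6.09 and 78.8 and 89 (log2 3.68), and Cyp11a1, the first enzyme of steroid synthesis, at 2.96 and 3.86 and 84.8 and 78.3 (log2 4.23). WT libraries were above 0 and KO libraries many times higher in each of these genes.

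Of 21 peritubular and stromal genes only 10 passed the filter, of which 9 rose. Myl9, a smooth muscle light chain, stood at 9.34 and 8.93 FPKM in WT and 100.02 and 103 in KO (log2 3.34), and Acta2, smooth muscle actin, at 1.48 and 1.0 and 12.8 and 13.1 (log2 2.65). Of 19 macrophage genes 11 were tested and 10 rose. Mpeg1, a pore protein of phagocytes, stood at 1.53 and 1.45 and 45.8 and 32.6 (log2 3.99), and the complement gene C1qa had no reads in WT and 3.26 and 2.71 FPKM in KO. Of 16 endothelial genes 5 were tested, of which 3 rose (Cldn5, Cdh5 and Ly6c1) and 2 fell. The 4 list members that fell, Actg2 (26.1 and 39.6 against 0.322 and 0.591), Aif1 (24.9 and 45.7 against 0.436 and 0.488), Sox17 and Sox18, are a smooth muscle actin, a macrophage gene and 2 transcription factors. Of 18 epididymal genes 4 passed and none rose, and 6 of the 18 had no reads in either WT library and 5 none in either KO library. Of 15 lymphocyte genes 2 passed and of 11 red blood cell genes 2.

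**Figure D5:**
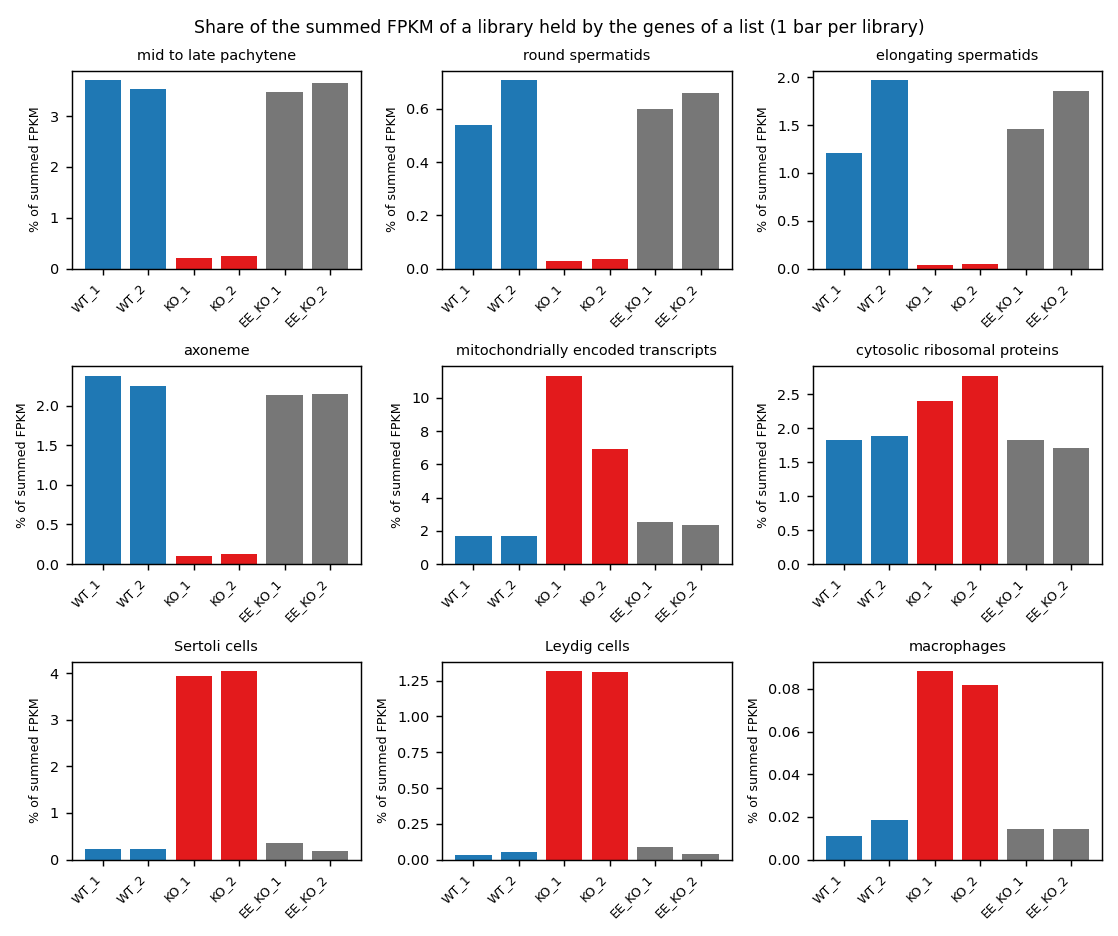
Percent of the summed FPKM of each library (y axis from 0, 1 bar per library) held by the genes of 9 lists; blue WT, red KO, grey EE_KO. Pachytene, spermatid and axoneme lists are low in both KO libraries and Sertoli, Leydig and macrophage lists and mitochondrial transcripts are high; the y scales differ between panels.

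Matrix and blood-testis barrier genes rose in 34 and fell in 3 of 38 tested (of 48). Timp1, an X-linked inhibitor of matrix proteases, stood at 0.322 and 0.446 FPKM in WT and 45.8 and 51.9 in KO (log2 5.17, SE 0.33), and Col18a1, a collagen of basement membranes, at 2.06 and 2.4 and 58.2 and 48.2 (log2 4.07). Nectin3, the adhesion protein of the germ cell side of the contact with Sertoli cells, fell from 39.1 and 33.3 to 1.64 and 1.91 (log2 -3.74). Cdh2, N-cadherin, was not called (23.2 and 18.3 against 23 and 18.8). It was a called rise with TPM (log2 0.45), voom (0.40) and quantile normalization (0.48).

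Some genes were near 0 in 1 group only. In both WT libraries 125 genes were under 0.5 FPKM while both KO libraries were at 5 or more. Of these, 113 are protein-coding (90.4%, against 77.1% of all genes tested) and 14 are X-linked (11.2%, against 3.56% of all genes tested). The reverse held for 766 genes, of which 406 are protein-coding (53%) and 17 are X-linked (2.22%). Fbxw10, an F-box gene, was among them at 88 and 79.6 FPKM in WT and 0.221 and 0.358 in KO, as was Allc, allantoicase, at 58.7 and 92.2 and 0.445 and 0.499.

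RNA classes differed in balance. Of 12331 tested protein-coding genes 5523 rose and 5114 fell (median 0.10), whereas of 1744 long non-coding genes 283 rose (16.2%) and 1282 fell (73.5%), 730 of them at least 4-fold (median -1.74). The median long non-coding gene stood at 3.70 FPKM in WT and 0.586 in KO. Rbakdn, the most abundant of those that fell, stood at 915 and 826 FPKM in WT and 11.4 and 20.1 in KO (log2 -5.75), and 1700008K24Rik at 602 and 538 and 15.2 and 18.4 (log2 -5.01). Malat1, a nuclear RNA of most somatic cells, was the most abundant that rose, from 17.7 and 20.2 to 158 and 187 (log2 3.11). These 3 were chosen after their values were seen. No source used here gives the strand of the reads, so a non-coding gene and a gene that overlaps it cannot be told apart. Pseudogenes had 291 rises and 540 falls of 1123 tested (median -0.51).

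Levels in EE_KO are given for several of these genes, since its libraries belong to the same series and fit. Piwil1 stood at 290.4 and 336 FPKM in EE_KO, Ldhc at 2424 and 2618 and Dnah8 at 245 and 260.0, all within 1.5-fold of the WT libraries. Prm1 stood at 429 and 691, Rps4x at 3.48 and 1.72, Psap at 74.3 and 48.9 and Insl3 at 94.7 and 45.8. Of the 2 EE_KO libraries, EE_KO_1 was the higher in Fos, Insl3 and Rps4x. Each of the 7 genes lay nearer to WT than to KO in both EE_KO libraries. They are examples, and no share over all genes was taken. Other genes differed: Ndufs6, of the respiratory chain list, stood at 49.2 and 44.9 FPKM in WT and 11.9 and 15.0 in KO. In EE_KO it stood at 27.5 and 25.1, nearer to KO in FPKM.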

How the data were processed

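The deposited files hold FPKM per Ensembl gene for each library, per the file headers, with GRCm38 and mm10 as builds per the submitters' processing notes. No source used here gives the aligner, counter, annotation or strand. Symbols, types and positions came from GENCODE M21, which matched 54409 of 54532 genes. Deposited FPKM times gene length gave whole reads for 96.8 to 97.0% of values above 0 (tolerance 0.01).

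Genes with a mean of at least 1 FPKM over WT and KO were tested with limma 3.58.1 (R 4.3.3) on log2(FPKM + 1) of all 6 libraries, with a mean-variance trend and no replicate block. The pseudocount of 1 shrinks changes of low genes. Calls required an adjusted p (Benjamini-Hochberg, 15999 genes) below 0.05. The code was tested on simulated data. Tables used Python 3.11.15 with pandas 2.3.3.

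The comparison, the lists, the pairs and the motifs were chosen with earlier results of these data known, and 6 of 2090 list entries matched no gene. Named genes are the MAPS gene, the 12 largest rises and falls, for each list the 3 members with the largest changes in its main direction and 2 in each other outcome, the 6 pairs that moved most, the 10 highest levels per group and 5 genes near 0 in 1 group. Sycp3, Mybl1, Rfx2, Hspa2, Acr, Tekt1, Lamp1, Sqle, Cdkn1a, Bax, Mdm2, Jun, Ddit3, Hspa5, Sox9, Amh, Star, Cyp11a1, C1qa, Ldha, Ybx1, Pabpc1, Gapdh, Gapdhs, Igf1r, Rad21, Rad21l and Rec8 were named after their values were seen. A further pair of forms is not reported here. Alternatives changed the pseudocount, filter, scaling, model, threshold and libraries.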

Additional observations from a re-analysis of the deposited data

How the results depend on the processing

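The 13585 genes called in KO against WT (13699 at an unadjusted p under 0.05) became 7938 of 9025 tested with a mean of at least 5 FPKM, where fewer genes were tested, and 5453 when a change of at least 4-fold was required. Leaving out 1 library at a time gave 12783 (without KO replicate 1) to 13568 (without EE_KO replicate 1). The other settings were within 1.5 times, from 10777 with protein-coding genes only to 19036 of 35750 without a filter. Replicate numbers 1 and 2 recur in each group, but the labels do not pair libraries, and the replicate 1 minus 2 differences of WT and KO correlated at -0.017 across genes; with a replicate block 13565 genes were called. Rises were 47.1% of calls as reported and 54.5% with TPM. Of 376 named genes under the 18 settings that refit each gene, 6530 values kept their call or stayed uncalled, 20 lost and 125 gained a call, and 37 changed sign where either value was called. Of these, Sycp3 (0.0732) and Lamp1 (0.0300) fell as reported and were not called with quantile normalization. The others had small falls that were not called as reported and were called rises under another scaling: with quantile normalization Tex101 0.54, Sycp1 0.443, Mov10l1 0.459, Atp5b 0.611, Mrpl43 0.587, Fis1 0.404, Gosr2 0.381, Psmb5 0.567, Banf1 0.571, Rpl41 0.578, Rps15 0.469, Sdhb 0.57, Srsf7 0.566, Eif1 0.671, H2afy 0.305, Prkaca 0.429, Ppp1r2 0.351, Usp7 0.426, Epcam 0.341; with TPM Mrpl43 0.423, Far1 0.351, Psmb5 0.318, Haus6 0.379, Sdhb 0.388, Srsf7 0.336, Eif1 0.295, H2afy 0.377, Epcam 0.414; with voom Mrpl43 0.369, Far1 0.307, Haus6 0.342, Sdhb 0.336, Srsf7 0.281, H2afy 0.331, Epcam 0.368. These scalings move the median of all genes upward. The rise of mt-Co1 was not called with quantile normalization (0.230). Falls not called with TPM and voom were Sycp3 (-0.17 and -0.23), Myd88 (-0.25 and -0.31) and Fosl1 (-0.19 and -0.27). Of 55 list medians, 10 changed sign in some of these settings: beside those named above, the mitochondrial ribosome, Golgi, proteasome and spliceosome, all within 0.07 of 0 as reported, and the histones (-0.82 to 0.01) and oocyte genes (-3.69 to 0.03) without a filter, which adds members near 0. For a gene of 2 kb a single read equals 0.0278 to 0.0357 FPKM. With 2 libraries a group the smallest exact permutation p is 0.333.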
